A study of Arabidopsis thaliana with 18 samples.

Results

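Class III peroxidases are secreted haem enzymes of plants that use hydrogen peroxide in the cell wall, and the transcripts of 10 of these genes were followed in germinating Arabidopsis thaliana seed of 9 genotypes. The genes were PRX71 (AT5G64120), PRX70 (AT5G64110), PRX69 (AT5G64100), PRX16 (AT2G18980), PRX62 (AT5G39580), PRX33 (AT3G49110), PRX34 (AT3G49120), PRX53 (AT5G06720), PRX64 (AT5G42180) and PRX72 (AT5G66390), taken from 73 listed genes of the family and from 37336 genes in the table. The set was chosen by the low PRX71 transcript level in athb15 seed and in seed labelled wrky14, so the comparisons of those lines with wild type are descriptions without a test. Poly(A) RNA was sequenced in 18 stranded libraries, 2 per genotype, from seed that was kept cold and dark for 48 h at 4 °C and then held for 24 h in continuous light (100 µE per square metre and second) at 22 °C. The 8 lines carried a homozygous T-DNA insertion in a gene for a transcription factor and were labelled vnd2, smb, obp1, athb25, hat2, lmi1, athb15 and wrky14. Wild type was Col-0, the accession in which the insertions were made. Each line rests on a single insertion allele, and seed from several parent plants had been pooled. Nothing stated whether the 2 libraries of a genotype came from separate pools, so the p-values measure the spread between libraries, which may be technical.

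Wall peroxidases act in opposing ways. They can join extensins, lignin monomers and other phenolics into a stiffer wall, and they can also make reactive oxygen species that cut wall polymers and loosen it. Both activities depend on hydrogen peroxide, much of which derives from superoxide made by the NADPH oxidases of the plasma membrane. In seeds of several species, reactive oxygen and peroxidases have been linked to growth of the embryo and to rupture of the endosperm, the living layer that encloses it. The data are transcript counts of whole seed, so they carry no information on where the protein was or how active it was, and fewer cells of a type cannot be told apart from less RNA per cell.

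PRX69, PRX70 and PRX71 are tandem neighbours on chromosome 5, all on the minus strand, and together span 10441 bases (TAIR10). PRX69 lies at chr5:25650567-25652247, PRX70 at chr5:25654074-25656067 and PRX71 at chr5:25659257-25661007, with 1826 and 3189 bases between them. PRX62 lies elsewhere on that chromosome, at chr5:15847065-15849141, and PRX16 at chr2:8233335-8235440, both on the minus strand. The exons of PRX71 were most like those of PRX62 (66.9% identity, longest identical run 28 bases), above those of its neighbours PRX70 (57.2%) and PRX69 (53.9%). PRX33 and PRX34 are also adjacent, at chr3:18200587-18203265 and chr3:18207651-18210333 on the plus strand, with 77.0% exonic identity and an identical run of 111 bases. Reads within that run cannot be told apart between these genes. How such reads were counted, or whether they were dropped, is not stated, so the counts of this pair are uncertain.

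The 250 bases before the annotated start of the 4 peroxidases with measurable transcripts are shown because their levels ran alike over the 18 libraries (Pearson's r between 0.691 and 0.916 for the 6 pairs, a description without a test). These libraries are 2 from each of 9 genotypes and include those that chose the set. Letters are from the RefSeq copy of the genome (TAIR10.1), on the strand of the gene, and capitals mark TTGAC or its complement GTCAA, the core of the W-box that WRKY factors bind. The windows are chr5:25661008-25661257 for PRX71, chr5:15849142-15849391 for PRX62, chr5:25652248-25652497 for PRX69 and chr2:8235441-8235690 for PRX16, all on the minus strand.
PRX71 promoter: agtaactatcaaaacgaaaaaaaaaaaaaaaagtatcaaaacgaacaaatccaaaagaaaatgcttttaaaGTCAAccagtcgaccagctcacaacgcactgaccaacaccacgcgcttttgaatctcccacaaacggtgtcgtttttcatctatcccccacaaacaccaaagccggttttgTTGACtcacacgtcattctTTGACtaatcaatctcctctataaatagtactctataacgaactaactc
PRX62 promoter: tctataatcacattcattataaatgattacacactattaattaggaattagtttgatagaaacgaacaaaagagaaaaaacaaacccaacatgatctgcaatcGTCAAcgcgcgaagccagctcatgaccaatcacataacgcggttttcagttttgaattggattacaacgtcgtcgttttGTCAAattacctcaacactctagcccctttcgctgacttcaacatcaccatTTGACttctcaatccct
PRX69 promoter: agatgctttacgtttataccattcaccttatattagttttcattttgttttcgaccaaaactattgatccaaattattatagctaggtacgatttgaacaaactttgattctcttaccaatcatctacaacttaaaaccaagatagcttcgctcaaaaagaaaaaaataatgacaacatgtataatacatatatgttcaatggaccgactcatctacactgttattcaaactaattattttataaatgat
PRX16 promoter: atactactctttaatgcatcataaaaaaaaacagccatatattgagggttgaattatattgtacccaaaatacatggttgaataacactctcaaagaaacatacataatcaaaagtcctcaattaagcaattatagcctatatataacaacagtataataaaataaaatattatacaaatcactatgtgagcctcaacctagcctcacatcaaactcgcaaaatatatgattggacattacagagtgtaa
The PRX71 window held 3 W-box cores, 175, 64 and 45 bases before the gene start, and the PRX62 window held 3, at 143, 64 and 13 bases. No such core was in the PRX69 and PRX16 windows. Among the members without measurable transcripts, the PRX72 window held 3 cores, that of PRX34 held 2 and that of PRX53 held 1. The core is short, and 44.9% of the 27443 promoter windows of protein-coding genes held at least 1 on one strand or the other. The share that held 3 was not counted. None of the 10 promoter windows held CAATNATTG, the pseudopalindrome of class I and II HD-ZIP factors (0.918% of promoters), the longer pseudopalindrome of class III HD-ZIP factors (0.051%) or the G-box CACGTG (6.49%), each searched on both strands. Matches are descriptions of the sequence and do not mark bound sites.

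Library totals over genes ranged between 18146206 and 33111743 counts, and 19100 genes had enough counts to be tested. Transcript of the targeted gene was lower than in Col-0 in its own line for ATHB25, SMB, LMI1, ATHB15 and HAT2 (log2 fold changes -3.31, -2.53, -2.45, -1.19 and -1.02, all past an adjusted p of 0.01 in edgeR). VND2 was 0.75 lower on the log2 scale without passing the test (SE 0.51, adjusted p = 0.414). OBP1 was not lower in the libraries labelled obp1 (log2 fold change 0.55) and WRKY14 was 5.01 higher on the log2 scale in the libraries labelled wrky14, so both lines are named here by their labels only. Transcripts of the endosperm markers EPR1, EXPA2, MAN5 and MAN7 were present in all libraries, with a summed level between 5552 and 12637 CPM (counts scaled to the total of their library), and edgeR called 0 of the 4 against Col-0 in any line, with 0 to 2 of them at an unadjusted p under 0.05. Among the 6 lines that did not choose the set, EXPA2 and MAN7 differed (adjusted p = 0.000240 and 0.00671, the MAN7 call lost in 7 of 17 alternatives), and against the mean of the other 5 of these lines EXPA2 was 0.36 higher on the log2 scale under the obp1 label and had a log2 fold change of -0.34 in athb25. Those of the root hair markers COBL9, EXPA7 and EXPA18 were at 0 apart from 1 count of COBL9 in 1 library.

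PRX71, an enzyme known for restraining cell size and for answering damage to the wall, was the member with the widest range of transcript levels. Its abundance was 0.764 and 0.980 CPM in smb libraries. The libraries labelled wrky14 had 1.35 and 0.605 CPM, athb15 libraries 1.19 and 2.01 CPM, and lmi1 libraries 2.55 and 1.02 CPM. Levels in vnd2 libraries were 3.70 and 1.96 CPM, in athb25 libraries 3.37 and 3.68 CPM, in hat2 libraries 4.73 and 3.0 CPM and in the libraries labelled obp1 5.34 and 5.53 CPM, against 7.74 and 8.30 CPM in Col-0 libraries. All 16 line libraries were below both Col-0 libraries, and the highest and lowest of the 18 differed 13.7-fold. In the order of mean level, the ranges of neighbouring genotypes overlapped at every step up to hat2, and separated only between hat2 and the obp1 label and between the obp1 label and Col-0. These values rest on 14 to 219 counts per library.

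PRX69, expressed in growing root hairs and the most abundant of the 10 transcripts, followed a similar order, with smb lowest and apart from the next line. It had 6.44 and 9.49 CPM in smb libraries, 17 and 13.1 CPM in vnd2, 16.9 and 14.6 CPM in lmi1, 15.5 and 17.5 CPM in the libraries labelled wrky14 and 16.8 and 18.7 CPM in athb15. It had 28.6 and 24.9 CPM in hat2, 30.8 and 38.0 CPM in athb25 and 37.7 and 39.2 CPM in the libraries labelled obp1, against 39.7 and 37.5 CPM in Col-0. The genotypes thus fell into ranges that did not touch: smb at the bottom, then vnd2, lmi1, the wrky14 label and athb15, then hat2, then athb25, the obp1 label and Col-0. Within the top range the athb25 and obp1-labelled libraries overlapped those of Col-0.

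PRX62, which also acts in root hair growth and has been linked to endosperm rupture, was highest in Col-0. Its transcript had 8.31 and 7.04 CPM in lmi1, 8.51 and 8.0 CPM in smb, 9.58 and 7.42 CPM in the libraries labelled wrky14 and 10.4 and 10.2 CPM in athb15. Levels were 12.9 and 12 CPM in vnd2, 12 and 16.5 CPM in athb25, 15.8 and 14.8 CPM in hat2 and 21.8 and 18.3 CPM in the libraries labelled obp1, against 27.0 and 22.7 CPM in Col-0. As for PRX71, all 16 line libraries lay below both Col-0 libraries.

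PRX16, a further peroxidase linked to endosperm rupture, varied least of the 4, with a 2.82-fold range over libraries. It had 3.18 and 3.96 CPM in vnd2, 4.14 and 3.07 CPM in lmi1, 3.37 and 4.23 CPM in the libraries labelled wrky14, 4.28 and 4.47 CPM in athb15 and 4.75 and 5.53 CPM in smb. It had 6.08 and 6.59 CPM in athb25, 7.64 and 5.61 CPM in hat2 and 8.65 and 7.62 CPM in the libraries labelled obp1, against 8.41 and 7.09 CPM in Col-0. Here smb was not the lowest line, and the libraries labelled obp1 overlapped those of Col-0.

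**Figure D1:**
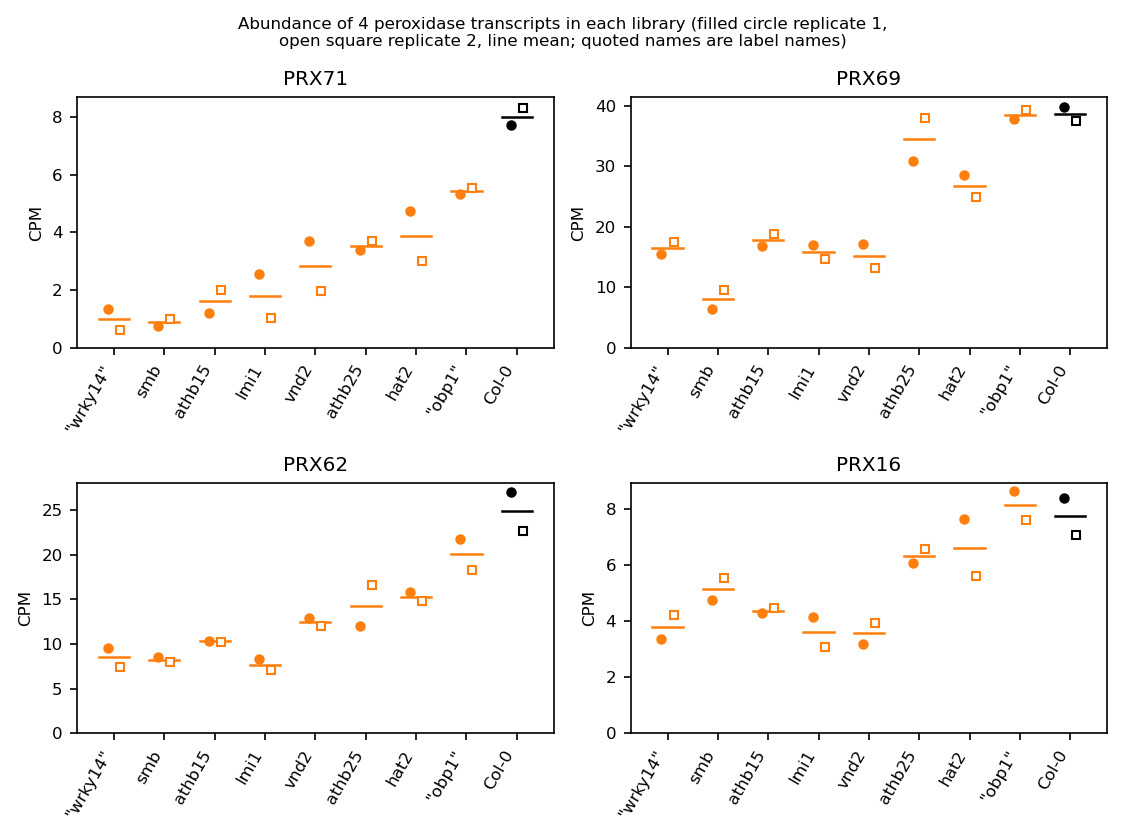
CPM of PRX71, PRX69, PRX62 and PRX16 (vertical axes, each starting at 0) in the 2 libraries of each genotype, with the mean as a line, lines in orange and Col-0 in black at the right. All 16 line libraries lie below both Col-0 libraries for PRX71 and PRX62, and smb stands lowest for PRX69, at 6.44 and 9.49 CPM.

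The other 6 members were at or near 0 and were not tested. PRX70, between PRX69 and PRX71 in the tandem array, had 37 counts over the 18 libraries, 6 at most in one of them and none in 4 libraries. PRX34, which with PRX33 feeds the oxidative burst of the wall in defence, had 33 counts, 7 at most in one library, and PRX33 had 1 count in a Col-0 library. PRX53, a peroxidase of lignification and wounding, had 3 counts in 1 vnd2 library. PRX64, needed for the lignin of the Casparian strip in roots, had 1 count in a smb library and overlaps another gene, and PRX72, a peroxidase of stem lignification, had 1 count in a library labelled obp1. The neighbours PRX69 and PRX71 had at least 118 and 14 counts in every library, so the tandem genes were unequal in abundance in this tissue at this time. Differences of the other 6 between genotypes were not detectable at this depth.

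Differences that do not rest on Col-0, athb15 or the wrky14 label were tested as equality of level among the 6 remaining lines, vnd2, smb, the obp1 label, athb25, hat2 and lmi1. All 4 measured members differed among these lines (edgeR quasi-likelihood F test with Benjamini-Hochberg adjustment over 19100 genes), where 12.8% of all tested genes did. The adjusted p was 1.47e-08 for PRX69, 6.09e-06 for PRX62, 0.000171 for PRX16 and 0.000619 for PRX71. All 4 kept this call without any one of the 12 libraries of these lines. Set against the mean of the other 5 of these lines, smb was lower for PRX69 by a log2 fold change of -1.56, for PRX71 by -1.88 and for PRX62 by -0.70 (adjusted p = 2.99e-07, 0.00260 and 0.00204), and 1.4% of genes were called lower in that comparison. The libraries labelled obp1 were higher for all 4, with log2 fold changes of 1.23 for PRX71, 1.11 for PRX69, 0.85 for PRX62 and 0.73 for PRX16 (adjusted p = 0.00163, 1.98e-06, 4.52e-05 and 0.000859), where 3.21% of genes were called higher. vnd2 was lower for PRX69 (-0.51) and PRX16 (-0.71), against 4.27% of genes called lower. In lmi1 only PRX62 was called lower (-0.80), against 0.12% of genes called lower, though all 4 were lower at an unadjusted p under 0.05. In athb25 only PRX69 was called higher (0.91), against 2.04% called higher, though 3 of the 4 were higher at an unadjusted p under 0.05. hat2 had 0 members called by edgeR, against 1.05% of genes called in either direction. All 4 were higher in hat2 at an unadjusted p under 0.05, PRX69 nearest to a call (0.48, adjusted p = 0.0127).

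Each line was also compared with Col-0, with the same 2 Col-0 libraries in every comparison and in the choice of the set, so the 8 comparisons are not independent of each other. The Col-0 level of PRX71 helped to choose the set, so PRX71 is described against Col-0 without a test, and calls are counted over the other 3 measured members. These 3 ran alike with PRX71 over the libraries (Pearson's r between 0.691 and 0.916), so their calls against Col-0 are not independent of the choice either. The share of all genes beside each count is given for scale and is no test of the set. In vnd2 seed all 3 were called lower, where 2.16% of genes were. The log2 fold change was -1.35 for PRX69 (SE 0.14), -1.12 for PRX16 (SE 0.18) and -0.99 for PRX62 (SE 0.14), with adjusted p = 3.23e-06, 0.000513 and 0.000105. PRX71 was at 35.8% of its fitted Col-0 level (log2 fold change -1.48, SE 0.29). The median over all 4 was -1.23, and over all tested genes it was 5.78e-05. PRX16 lost its call without vnd2 replicate 1 or Col-0 replicate 1 (adjusted p = 0.0113 and 0.0110).

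In smb seed 2 of the 3 were called lower, where 1.53% of genes were, and PRX71 and PRX69 had their lowest fitted levels of the 6 lines. PRX69 was at 21.3% of its fitted Col-0 level (log2 fold change -2.23, SE 0.15, adjusted p = 2.41e-08). PRX62 was at 33.2% (-1.59, SE 0.15, adjusted p = 1.97e-06). PRX16 was at 67.6% of Col-0 without passing the test (-0.57, SE 0.17, adjusted p = 0.0810). PRX71, described without a test, was at 11.2% (-3.15, SE 0.37). The median of the 4 was -1.91, against 0.00503 over all genes. The ratio of PRX69 to PRX16 was 1.36 and 1.71 in smb libraries and between 3.31 and 5.76 in the other 16.

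In lmi1 seed all 3 were called lower, where 0.623% of genes were. PRX62 was at 31.2% of Col-0 (log2 fold change -1.68, SE 0.14, adjusted p = 1.64e-06), PRX69 at 41.0% (-1.29, SE 0.14, adjusted p = 2.13e-05) and PRX16 at 47.4% (-1.08, SE 0.18, adjusted p = 0.00209). PRX71 was at 23.3% (-2.1, SE 0.31), and at a log2 fold change of -2.97 without lmi1 replicate 1. PRX62 fell deeper here than PRX69, whereas in vnd2 and smb PRX69 had the larger estimate, and the difference between the 2 genes was not tested. PRX16 lost its call without lmi1 replicate 2 or Col-0 replicate 1 (adjusted p = 0.0162 and 0.0473).

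In athb25 and hat2 seed PRX62 alone of the 3 was called lower. The log2 fold change was -0.80 in athb25 (SE 0.14, adjusted p = 0.00265), where 0.639% of genes were called lower, and -0.70 in hat2 (SE 0.13, adjusted p = 0.00823), where 0.267% were. PRX71 had estimates of -1.19 in athb25 and -1.04 in hat2 (SE 0.28 and 0.27), given without a test. PRX69 was at 89.1% of Col-0 in athb25 and 69.4% in hat2, and PRX16 at 82.1% and 86.3%, none of them called. The PRX62 call was lost without athb25 replicate 1 or Col-0 replicate 1 in athb25 (0.0618 and 0.0547) and without any one of the 4 libraries in hat2 (0.0186 to 0.160). The median of the 4 members was -0.54 in athb25 and -0.61 in hat2, against -0.000288 and -0.0124 over all genes.

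In the libraries labelled obp1 0 of the 3 were called by edgeR or by DESeq2, where edgeR called 1.41% of genes lower and 2.51% higher. PRX62, 1 of the 3, had an unadjusted p under 0.05 (adjusted p = 0.149). The log2 fold change was -0.31 for PRX62 (SE 0.13), -0.00328 for PRX69 (SE 0.13), 0.08 for PRX16 (SE 0.16) and, without a test, -0.56 for PRX71 (SE 0.26).

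In athb15 and in the libraries labelled wrky14, where PRX71 chose the set, the values are descriptions. PRX71 was at 20.4% of Col-0 in athb15 and 12.7% under the wrky14 label, PRX62 at 41.6% and 34.7%, PRX69 at 46.1% and 42.6% and PRX16 at 56.9% and 48.8%. By the same threshold 3 of the 4 were called lower in athb15, where 0.11% of genes were, and all 4 under the wrky14 label, where 0.911% were, and nothing is read from either count. The median of the 4 was -1.19 in athb15 and -1.38 under the wrky14 label.

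**Figure D2:**
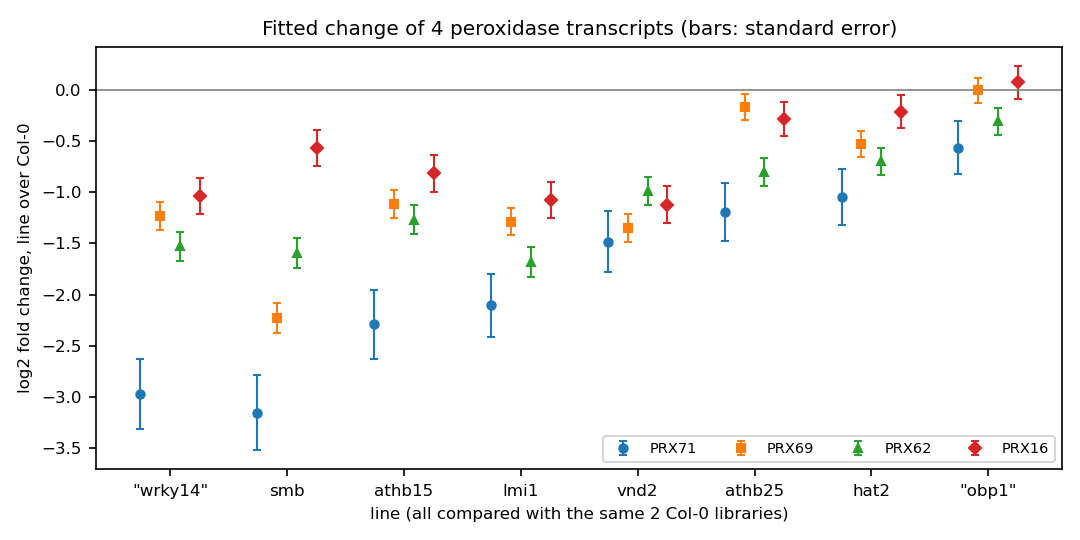
Fitted log2 fold change of each line over Col-0 (vertical axis) for PRX71, PRX69, PRX62 and PRX16, with bars of 1 standard error and lines along the horizontal axis. PRX71 is lowest in smb (-3.15) and every estimate is below 0 except that of PRX16 under the obp1 label (0.08).

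Markers of seed stage differed among these lines as well. Transcripts of seed storage proteins decline as germination proceeds. Their summed level over 8 genes was 11882 and 7021 CPM in vnd2 libraries, 4644 and 5082 CPM in smb, 3696 and 2995 CPM under the wrky14 label, 2626 and 2761 CPM in athb15 and 2497 and 2551 CPM in lmi1. It was 1671 and 2782 CPM in athb25, 916 and 823 CPM in hat2 and 1935 and 2260 CPM under the obp1 label, against 2115 and 1717 CPM in Col-0. Of the 8 genes, 8 were called higher in vnd2, 5 in smb and 1 under the wrky14 label, where 1.97%, 0.618% and 0.246% of all genes were. In hat2 7 were called lower, where 0.267% of genes were. edgeR called 0 of 8 in lmi1, athb15, athb25 and under the obp1 label (3, 2, 2 and 1 of them at an unadjusted p under 0.05). The vnd2 calls held in all 11 alternatives. In hat2 the CRU3 call was lost in 5 of 11, that of SESA1 in 4 and that of CRU2 in 3. In smb the SESA5 call was lost in 3 of 11. All 8 differed among the 6 lines that did not choose the set, where 12.8% of genes did. Against the mean of the other 5 of these lines 8 were called higher in vnd2 and 6 in smb (4.68% and 0.953% of genes). In the same comparison 8 were called lower in hat2 and 1 in lmi1 (0.702% and 0.12% of genes). Transcripts of the greening markers RBCS1A, LHCB1.3, LHCB2.1 and LHCB4.1, which accumulate as the seedling turns green, summed to between 1964 and 3767 CPM over the 18 libraries. LHCB1.3, LHCB2.1 and LHCB4.1, 3 of the 4, differed among the 6 lines (adjusted p = 1.26e-05, 0.000975 and 0.00859), the LHCB4.1 call being lost in 8 of 17 alternatives. Against the mean of the other 5 lines LHCB1.3 and LHCB2.1 were called higher under the obp1 label (log2 fold changes 1.02 and 0.98), and all 3 were called lower in vnd2 (-1.18, -1.43 and -0.49 for LHCB1.3, LHCB2.1 and LHCB4.1). Against Col-0 the only greening call was LHCB1.3, higher under the obp1 label (1.09), and this call was lost in 3 of 11 alternatives. The part of seed stage in the peroxidase levels was not tested.

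Compared per kilobase of exon, the members were not the leading peroxidases of this tissue. The highest mean levels of the family were those of PRX42 (88.8 CPM per kb), PRX17 (34.9), PRX12 (33.6), PRX69 (16.3) and PRX31 (14.8). PRX62 ranked 7th with 10.4 CPM per kb, PRX16 8th with 4.56 and PRX71 11th with 2.39. Of the 73 listed genes 15 had no count in any library and 21 were tested, the 4 members and 17 others. The 10 members together made up 6.83 to 7.89% of the summed family CPM in smb, 7.2 to 8.96% in lmi1, 8.46 to 9.28% under the wrky14 label and 9.03 to 9.80% in athb15. Their share was 10.4 to 11.1% in vnd2, 12.2 to 14.1% in hat2, 13.5 to 15.7% in athb25 and 18.8 to 19.3% under the obp1 label, against 19.5 to 21.1% in Col-0. The family sum itself ranged between 299 and 415 CPM.

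**Figure D3:**
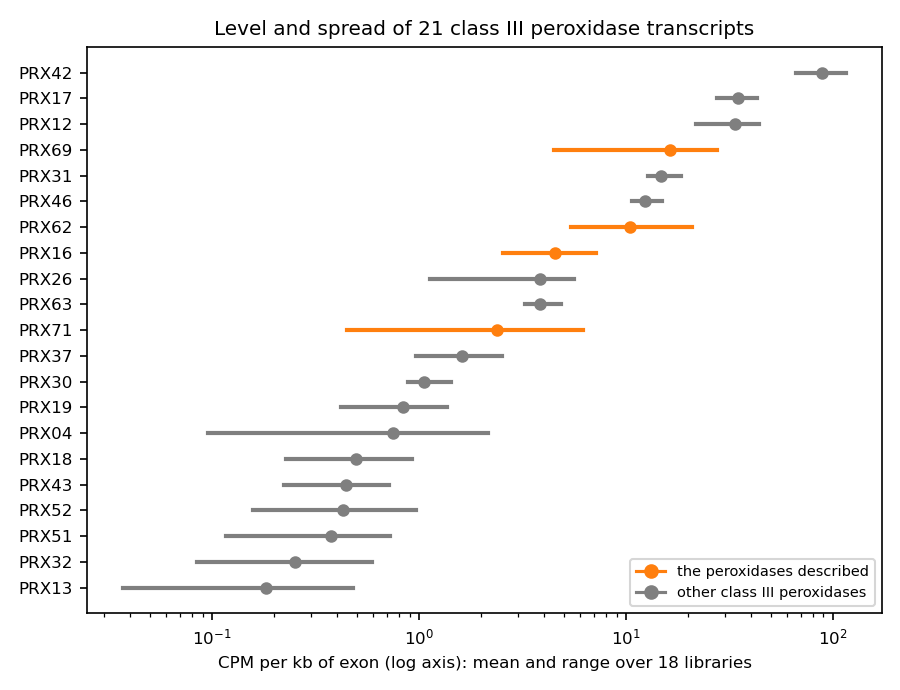
Mean CPM per kb of exon (points, log axis) and range over the 18 libraries (bars) for the 21 tested class III peroxidases, members in orange and others in grey. PRX71 spans a 13.7-fold range at a mean of 2.39, whereas the most abundant gene, PRX42, spans 1.74-fold at a mean of 88.8.

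Of the 17 other peroxidases 7 differed among the 6 lines, PRX42, PRX26, PRX37, PRX12, PRX04, PRX19 and PRX51 (adjusted p between 3.15e-05 and 0.00439), beside 12.8% of all genes. The PRX51 call was lost in 5 of 17 alternatives, and that of PRX26 without smb replicate 2 (0.0222). Against Col-0, of the 17, 2 were called lower in smb (1.53% of all genes), 1 lower and 1 higher in athb25 (0.639% and 0.984%), 1 lower in vnd2 (2.16%), 1 lower in lmi1 (0.623%), and 0 by edgeR in hat2 and under the obp1 label (3 and 4 of them at an unadjusted p under 0.05). Their median log2 fold change lay between -0.31 in vnd2 and 0.03 under the obp1 label. PRX42 rose in athb25, with 205 ± 8.86 CPM against 148 ± 3.28 CPM in Col-0 (SD, n = 2 each, log2 fold change 0.47, SE 0.08, adjusted p = 0.00372), and 10 of the 16 line libraries had more of it than both Col-0 libraries. PRX12 fell in athb25, with 35.4 ± 4.33 CPM against 54.5 ± 2.29 CPM in Col-0 (-0.63, SE 0.11, adjusted p = 0.00337). The PRX42 call was lost without any one of the 4 libraries compared, and the PRX12 call without 3 of them. PRX26 fell in smb, with 1.51 ± 0.34 CPM against 4.44 ± 0.74 CPM in Col-0 (-1.62, adjusted p = 0.00021; 0.0207 without smb replicate 2), and it overlaps another gene, so its counts are uncertain.

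PRX04 was the other peroxidase that moved most like the members. It had 0.145 ± 0.026 CPM in smb, 0.562 ± 0.303 CPM in vnd2 and 0.476 ± 0.384 CPM in lmi1, against 2.44 ± 0.41 CPM in Col-0 (SD, n = 2 each). All 16 line libraries were below both Col-0 libraries. The log2 fold change was -4.09 in smb (SE 0.49, adjusted p = 3.62e-05), -2.08 in vnd2 (SE 0.36, adjusted p = 0.000992) and -2.27 in lmi1 (SE 0.36, adjusted p = 0.00161). These calls rest on 3 to 72 counts per library, and they were lost without Col-0 replicate 2 in lmi1 and vnd2 (0.0253 and 0.0226) and without vnd2 replicate 2 (0.0194). The estimate was -3.56 in lmi1 without lmi1 replicate 1 and -2.80 in vnd2 without vnd2 replicate 1. Against the mean of the other 5 lines the log2 fold change of PRX04 was -2.67 in smb (adjusted p = 0.00285), -0.49 in lmi1 (0.557) and -0.27 in vnd2 (0.671). Of these 3 lines only smb was called there. Under the obp1 label PRX04 was called higher in this comparison (1.45, adjusted p = 0.00228), where 3.21% of genes were called higher.

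The genes whose log2 CPM most resembled that of PRX71 over the 18 libraries were ranked by Pearson's r among 19099 tested genes, as a description without a test, since the libraries fall into 9 pairs of one genotype each and include those that chose the set. The first was AT5G48430, annotated as an aspartyl protease (r = 0.947), at no more than 0.606 CPM in any library. It had 0.382 and 0.606 CPM in Col-0 and at most 0.328 CPM in the line libraries. It thus passed the count filter through the Col-0 libraries alone, and its likeness to PRX71 was partly set by that filter. PRX04 was the second (r = 0.939). XTH18, an enzyme that cuts and rejoins wall xyloglucan, was the third (r = 0.935), with 1.53 and 1.42 CPM in smb libraries against 14.7 and 11.3 CPM in Col-0. The pectin methylesterase gene AT4G02330 followed (r = 0.928), with 3.11 and 3.26 CPM in smb against 10.9 and 10.7 CPM in Col-0. A gene for monodehydroascorbate reductase, AT3G09940, which regenerates ascorbate, was the fifth (r = 0.919), with 0.109 and 0.285 CPM in smb against 1.77 and 1.74 CPM in Col-0. Among the members PRX62 ranked 8th (r = 0.916), PRX69 39th (r = 0.845) and PRX16 247th (r = 0.691).

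**Figure D4:**
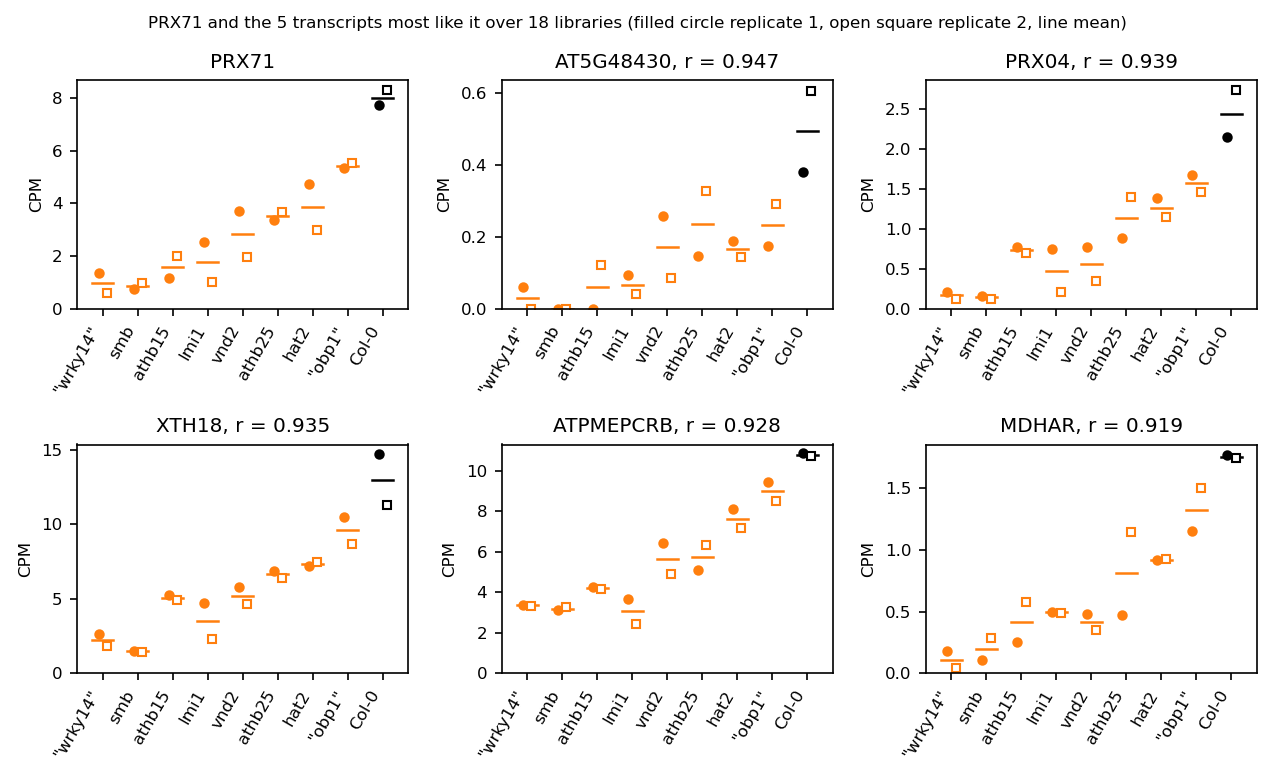
CPM per library of PRX71 and of the 5 transcripts with the highest Pearson's r with it over 18 libraries (vertical axes start at 0, scales differ), with lines in orange and Col-0 in black at the right. All 6 are highest in Col-0, and XTH18 is at 1.53 and 1.42 CPM in smb against 14.7 and 11.3 CPM in Col-0. AT5G48430 passed the count filter through the Col-0 libraries alone.

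Genes that supply or share the chemistry of wall peroxidases were followed as lists, to be read beside the 12.8% of all tested genes that differed among the 6 lines. Of 10 NADPH oxidase genes 5 were tested and 2 differed among the 6 lines, RBOHD, known from defence and systemic signalling, and RBOHB, known from seed germination (adjusted p = 0.000285 and 0.000426). Both rose in the libraries labelled obp1. RBOHB had 6.89 ± 0.07 CPM against 3.74 ± 0.29 CPM in Col-0 (log2 fold change 0.87, SE 0.16, adjusted p = 0.00262), and RBOHD had 208 ± 9.91 CPM against 150 ± 0.53 CPM in Col-0 (0.47, SE 0.09, adjusted p = 0.00337), where 2.51% of all genes were called higher. The RBOHB call was lost without any one of the 4 libraries compared, and the RBOHD call without 3 of them. In the other 5 lines 0 of the 5 oxidase genes were called by edgeR against Col-0, with 3 at an unadjusted p under 0.05 in vnd2, 2 in hat2, 1 in smb and 0 in athb25 and lmi1. Of 10 superoxide dismutase and catalase genes, all tested, FSD1 and CAT3 differed among the 6 lines (adjusted p = 8.39e-06 and 0.000832). The iron superoxide dismutase FSD1 rose under the obp1 label (1.3), in lmi1 (1.09), athb25 (0.92) and hat2 (0.80), and the catalase CAT3 rose in vnd2 (0.76). Against the mean of the other 5 lines FSD1 was called higher under the obp1 label (0.64) and not in lmi1, athb25 or hat2 (0.40, 0.19 and 0.05), and its calls against Col-0 were lost without 3 of the 4 libraries in hat2 and without 2 of them in athb25.

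Of 17 monolignol synthesis genes, which make the phenolic substrates of lignin, 15 were tested and 5 differed among the 6 lines: PAL1, PAL4, F5H1, PAL3 and CCoAOMT1. The CCoAOMT1 call was lost in 12 of 17 alternatives, that of PAL3 in 3 and that of F5H1 in 1. PAL1, one of the enzymes that open the phenylpropanoid pathway, rose in smb, with 4.21 ± 0.14 CPM against 2.1 ± 0.20 CPM in Col-0 (log2 fold change 0.99, adjusted p = 0.00529), and was the only call of this list against Col-0 in the 6 lines. It was lost with DESeq2 (0.0170) and without any one of the 4 libraries compared (0.0362 to 0.0680). Extensins and leucine-rich repeat extensins (LRX) are wall proteins, and extensins are substrates of peroxidase cross-linking. Of the 7 such genes 5 were tested and EXT3, LRX2 and LRX3 differed among the lines (adjusted p = 0.000529, 0.003 and 0.0094), the LRX3 call being lost in 6 of 17 alternatives and that of LRX2 in 2. EXT3, an extensin needed for the cell plates of the embryo, fell in vnd2, with 76.3 ± 13.6 CPM against 142 ± 6.88 CPM in Col-0 (-0.89, adjusted p = 0.000752). LRX3 fell in vnd2 (-0.62), smb (-0.61) and lmi1 (-0.81), and LRX4 in vnd2 (-0.37). These LRX3 calls were lost in 5, 4 and 3 of 11 alternatives, with log2 fold changes of -0.14 in vnd2, -0.12 in smb and -0.36 in lmi1 against the mean of the other 5 lines, and the LRX4 call was lost in 6 of 11. The EXT3 call was lost without vnd2 replicate 2 or Col-0 replicate 1 (0.0182 and 0.0113). Of 3 laccase, 3 Casparian strip and 3 peroxidase regulator genes, 1, 2 and 1 were tested. Of these, 0 were called by edgeR in any comparison with Col-0 or among the lines. Among the lines the laccase gene alone had an unadjusted p under 0.05. Against Col-0 it had one in vnd2, smb, athb25, lmi1, athb15 and under the wrky14 label, with log2 fold changes between 0.89 and 1.23. In hat2 (0.83) and under the obp1 label (-0.08) it did not. The tested regulator had one in vnd2, and 1 Casparian strip gene in athb25. KUA1, a repressor of peroxidase genes in leaves, was the tested regulator, with 15.7 ± 0.78 to 17.9 ± 0.38 CPM in the 6 lines and 15.0 ± 1.01 CPM in Col-0. UPB1, a repressor of root peroxidases, was at or near 0 in all libraries.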

How the data were processed

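RNA-seq was done on germinating seed of 8 T-DNA lines and Col-0 (2 libraries each). The authors made the deposited counts, whole reads per gene on TAIR10, with Trim Galore 0.4.2, HISAT2 2.0.5 and featureCounts 1.5.1 named in the submitters' processing notes; the strand setting of the counting is not given in the sources used here. A deposited column of gene length (other unit, bases) served for CPM per kb only.

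Counts were filtered with filterByExpr (19100 of 37336 genes kept; 11015 had no count), scaled by TMM and fitted with edgeR 4.0.16 (R 4.3.3) in 1 quasi-likelihood model of genotype over all 18 libraries. Benjamini-Hochberg adjustment ran over all tested genes, with a threshold of 0.01. CPM used TMM-scaled library sizes, and a standard error is the fold change over the root of F. Depth was 18146206 to 33111743 counts per library, the common biological coefficient of variation was 5.87%, and replicates of a genotype differed beyond sampling noise (chi-square per degree of freedom 2.23 to 10.1). The scripts were tested on simulated data.

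Members and lists were chosen with earlier results of these data known, and the numbers of the other peroxidases follow the usual naming of the family; 71 of the 73 have a RefSeq product that names a peroxidase. Named genes were the members, the targeted genes, the 5 most abundant other peroxidases and up to 10 of smallest p, at most 4 genes per other list by smallest p (CCoAOMT1, KUA1 and UPB1 were named after their values were seen), and the 5 genes most like PRX71. The gene table and RefSeq (TAIR10.1) shared 37051 loci, 99.5% with the same coordinates. DESeq2 1.42.0, other scaling, no filter, a replicate block, a model of 4 libraries, a threshold of 0.05, the mean of other lines as reference and leaving out each library were the alternatives.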

Additional observations from a re-analysis of the deposited data

How the results depend on the processing

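The count of 4 members that differ among the 6 lines held under every alternative run. Of the 17 other peroxidases tested, 7 differed, and 6 to 8 other peroxidases did with 1 library left out. With no count filter 11 did, but that fit also tested family members with too few counts for the main test, so the 11 are not out of the 17. Counts of members called against Col-0, here with PRX71 included as a description, were as follows. For athb25 (1) it was 2 at an adjusted p under 0.05, 2 with no count filter, 2 in a model of 4 libraries and 0 to 1 with 1 library left out (0 without athb25 replicate 1 or Col-0 replicate 1). For hat2 (1) it was 2 at 0.05, 3 with no count filter, 2 in a model of 4 libraries, 0 with the mean of the other 5 lines in place of Col-0, and 0 to 0 with any 1 of the 4 libraries left out. For the obp1 label (0) it was 1 with no filter and 4 against the other 5 lines. For lmi1 (4) it was 1 against the other 5 lines and 3 to 4 with 1 library left out. For vnd2 (4) it was 2 against the other 5 lines and 2 to 3 with 1 library left out, the 2 without Col-0 replicate 1. For smb (3) it stayed at 3 to 4. For athb15 (3) it was 1 to 2 with 1 library left out, the 1 without athb15 replicate 1, and for the wrky14 label (4) it was 3. A fit that leaves out a library assumes that the lone library of its genotype varies like the other groups.

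With the mean of the other 5 lines in place of Col-0 the sign of these log2 fold changes turned: PRX71 in athb25 (0.48), hat2 (0.66), vnd2 (0.13) and the obp1 label (1.23); PRX69 in athb25 (0.91), hat2 (0.48) and the obp1 label (1.11); PRX62 in athb25 (0.25), hat2 (0.38), vnd2 (0.0276) and the obp1 label (0.85); PRX16 in athb25 (0.30) and hat2 (0.38); PRX04 in athb25 (0.88), hat2 (1.09) and the obp1 label (1.45). This follows from the reference, since Col-0 was the highest or nearly the highest genotype for these genes. Under the obp1 label PRX69, near 0, turned to 0.00756 with DESeq2 size factors, 0.00684 with no filter, 0.00671 with DESeq2, 0.00832 in a model of 4 libraries, and lay between -0.0444 and 0.0483 with 1 library left out. PRX16 there lay between -0.0489 and 0.209 with 1 library left out.

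Libraries that share a replicate number did not deviate together (correlation of deviations -0.163 to 0.194 over 36 pairs of genotypes, 5 of them over 0.1), so the numbers were not taken as pairs. With a replicate block the members called were 4 in vnd2, 3 in smb, 0 under the obp1 label, 1 in athb25, 1 in hat2, 4 in lmi1, 3 in athb15 and 4 under the wrky14 label, the same counts as without it. At these depths 6 of the 10 members had too few counts to be tested.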
